A study of Mus musculus with 6 samples.

Results

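Transcription factors that set the identity of vomeronasal sensory neurons were measured in RNA bound to phosphorylated ribosomes. They are the 9 genes Neurog1, Neurod1, Bcl11b, Tfap2e, Meis2, Bcl6, Ebf1, Lhx2 and Emx2, named from among the 38561 genes of the table with earlier results of these data known. The vomeronasal organs were from male mice of the outbred CD-1 stock, and RNA was pulled down through the phosphorylated form of ribosomal protein S6, a mark that rises in recently active neurons. There were 3 libraries after exposure to pups (pup libraries) and 3 after a control exposure (control libraries). The labels name no genotype, transgene or other treatment for either group, and give neither the mice's age, the duration of exposure, what the control exposure was, nor if each library is its own animal. The p-values therefore cover the spread among these libraries alone, which may be technical. The control libraries held 10590716 to 11240065 counts in total and the pup libraries 18199476 to 20871266, so depth went with the group. Genes of gland cells were abundant and uneven between libraries. They summed to 172279 to 662411 CPM (counts for each 1000000, after TMM scaling) in control libraries and 106557 to 344148 CPM in pup libraries. Because of that scaling, these sums are not shares of a library's counts. The 9 factors together had 3659 to 19502 counts per library, 8 of the 9 passed the filter on low counts, and Neurog1 did not.

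Vomeronasal neurons are replaced throughout life from stem cells at the edges of the sensory epithelium. Proneural basic helix-loop-helix factors commit a progenitor to the neuronal lineage, after which immature neurons take one of 2 fates: apical neurons, which carry V1R receptors and the G protein Gαi2, and basal neurons, which carry V2R receptors and Gαo. Zinc finger, AP-2 and homeodomain factors are known to set and keep these fates. Factors of the Ebf, Lhx and Emx families also act in neurons of the main olfactory epithelium, where they take part in the expression of odorant receptor genes.

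Bcl6 differed most between groups: it was lower in every pup exposure library, at a mean 0.108 times that of the controls. Bcl11b averaged 2.0 times its control level in the pup libraries with groups that overlapped, and Ebf1 was 1.53 times as high with groups that did not. Meis2, Lhx2, Emx2, Neurod1 and Tfap2e had group means closer together than the larger of their SDs. The groups did not overlap for 2 of the 8 tested factors, against 19.8% of all genes. In edgeR's quasi-likelihood test over all 15498 genes tested, 0 of the 8 tested factors passed an adjusted p (Benjamini-Hochberg) of 0.05, as did 0% of all genes. At an unadjusted p under 0.05 there was 1 factor higher (Bcl11b) and 1 lower (Bcl6), against 6.31% of all genes higher and 4.67% lower. The median log2 fold change, pup exposure over control exposure, was 0.06 over the 8 factors and 0.03 over all genes tested, with 4 of the 8 positive against 51.5% of all genes. In bulk tissue, fewer cells of a type and less RNA per cell cannot be told apart, and without unprecipitated RNA neither can be told from a change in ribosome phosphorylation.

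**Figure D1:**
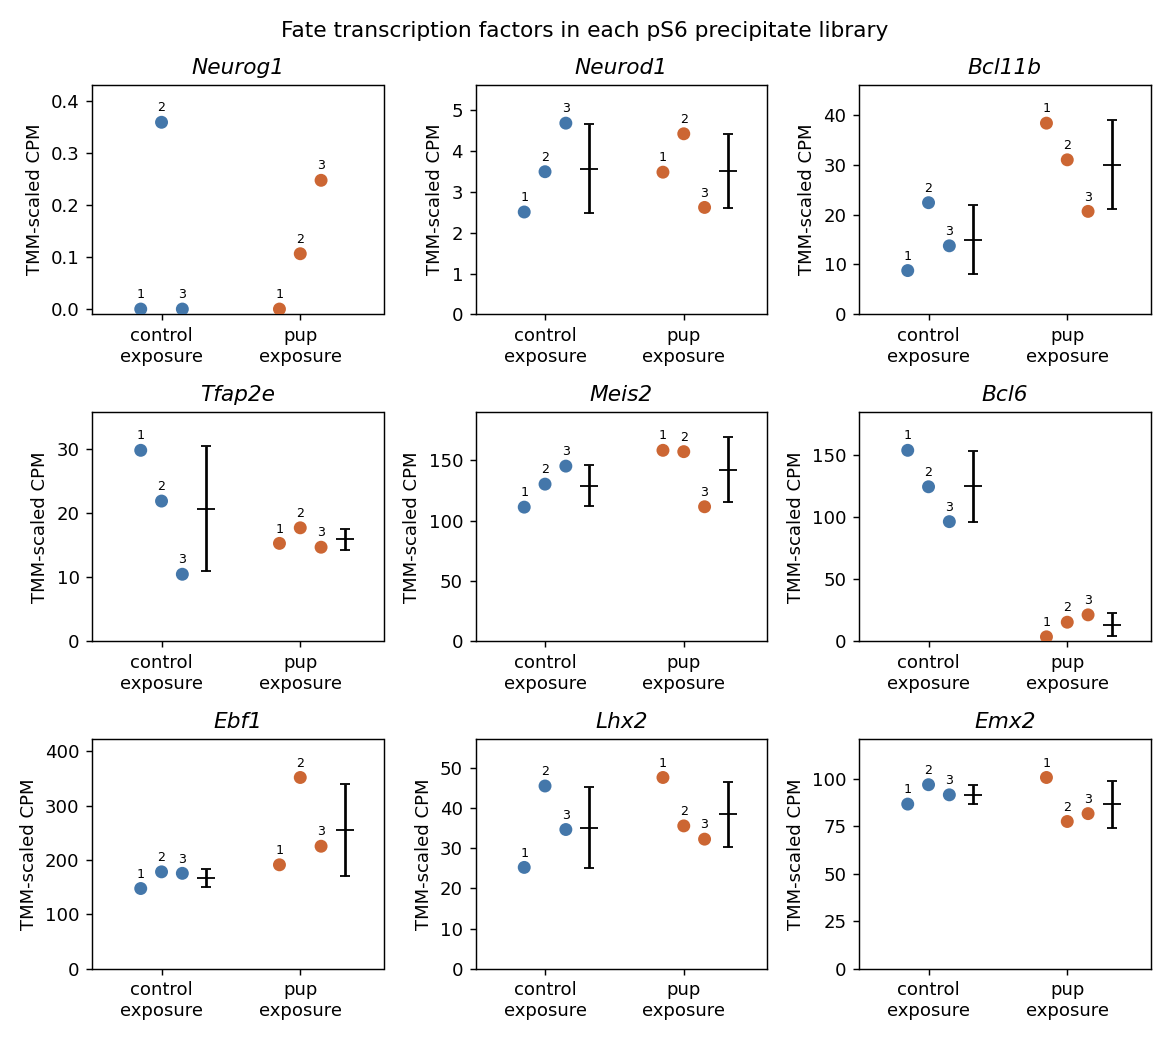
Level of each of the 9 factors in every library, in TMM-scaled CPM (vertical axis, linear), for control exposure (blue) and pup exposure (orange). Small numbers give the replicate, and the black bar is the mean ± SD of 3 libraries, left out for Neurog1, which is at 0 in 3 libraries. Bcl6 lies at 96.3 to 154 CPM in control libraries and at 3.70 to 21.4 CPM in pup libraries.

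Levels were compared between genes as CPM per kb of merged annotated exons. The median over all 6 libraries was highest for Emx2, at 29.6 CPM per kb, followed by Ebf1 at 18.9 and Meis2 at 11.4. Bcl6, Lhx2 and Tfap2e followed at 8.78, 8.0 and 7.91 CPM per kb, then Bcl11b at 2.66, Neurod1 at 1.28 and Neurog1 at 0.032. On merged exons, Emx2 (28.8 to 32.2) lay above every other factor in control libraries, while Bcl6 (14.4 to 22.9) and Ebf1 (15.1 to 18.3) could not be ordered. Meis2, Tfap2e and Lhx2 overlapped one another there, while in the pup libraries Tfap2e (7.04 to 8.49) lay below Meis2 (9.25 to 13.1) and Lhx2 (7.35 to 10.9) overlapped both. In pup libraries Emx2 (25.8 to 33.5) and Ebf1 (19.6 to 36.1) overlapped. The range of Bcl6 there (0.552 to 3.19) overlapped those of Neurod1 (0.960 to 1.62) and Bcl11b (2.55 to 4.73). The order depended on the length used. Per kb of the longest annotated transcript, Bcl6 (24.5 to 39.0, median 31.6) had the highest median in control libraries and overlapped Emx2 (29.7 to 33.2, median 31.3) and Ebf1 (24.7 to 29.8), so none of these 3 stood above the others. On that length Ebf1 (32.0 to 58.9) had the highest median in pup libraries, with Meis2 (20.3 to 28.8) next and overlapping Emx2 (26.5 to 34.5).

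The proneural factors were the least abundant. Neurog1 (ENSMUSG00000048904), the basic helix-loop-helix factor that commits olfactory progenitors to the neuronal fate, had 0, 4 and 0 counts in the control exposure libraries and 0, 3 and 5 in the pup exposure libraries. The 3 libraries at 0 allow up to 3 counts each, or 0.235 and 0.469 CPM in control libraries and 0.161 CPM in pup libraries, as counting error only. A difference in Neurog1 between the groups was not detectable at this depth. It is a gene of a single exon on chromosome 13 (56250478 to 56252163, GRCm38, minus strand), so spliced and unspliced RNA cannot be distinguished.

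Neurod1 (ENSMUSG00000034701; GRCm38 chromosome 2, 79452521 to 79456751), a related factor that acts after Neurog1 in the same lineage, was present in every library. Its levels were 2.51, 3.50 and 4.69 CPM in control libraries and 3.49, 4.43 and 2.62 CPM in pup libraries, so the groups overlapped throughout. It had a log2 fold change of -0.014 (SE 0.65, edgeR adjusted p = 0.996), and it was positive in 7 of 18 other settings. Relative to Omp, the marker of mature olfactory and vomeronasal neurons, the log2 ratio of Neurod1 was -7.91 ± 0.569 and -7.73 ± 0.528 (SD, n = 3 each), again with overlap. Of the 50-base words of the Neurod1 transcript, 9.66% also occur in transcripts of Cerkl, a neighbour on the same strand, or of Gm26755. Gm26755 had 0 counts in every library, while Cerkl had 17 to 74.

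Bcl11b (ENSMUSG00000048251; chromosome 12, 107910403 to 108003602), a zinc finger factor needed for vomeronasal neurons to mature and for the balance of the apical and basal branches, was measured at 8.78, 22.4 and 13.8 CPM in control libraries. In pup libraries it was at 38.4, 31.0 and 20.7 CPM. Control exposure replicate 2 lay above pup exposure replicate 3, and the other libraries were ordered by group. Its log2 fold change was 1.0 (SE 0.45), with an unadjusted p of 0.0449 and an edgeR adjusted p of 0.449. It stayed positive in all 18 other settings, from 0.50 (limma-voom, sample quality weights) to 1.43 without control exposure replicate 2. The log2 ratio of Bcl11b over Omp was -6.69, -5.33 and -5.79 in control libraries and -4.34, -4.41 and -5.32 in pup libraries. On that ratio the groups no longer overlapped, although the nearest libraries were at -5.33 and -5.32. The gap between group means was 1.25 on the log2 scale, against an SD of 0.694 and 0.545 within the groups.

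Bcl11b is also known from T cells. The T cell list summed to 1.56 to 8.15 CPM in control libraries and 0.429 to 3.47 CPM in pup libraries over its 7 genes, and Cd8a was at 0 in all but pup exposure replicate 3. The defining gene Cd3e reached at most 1.80 CPM (23 counts), in control exposure replicate 1. In that library Bcl11b was at 8.78 CPM and the list at 8.15 CPM. Of the 7 genes 2 were tested, both with a negative log2 fold change. Cd4, which was not tested, went the other way, with 0, 0 and 5 counts in control libraries and 0, 45 and 16 in pup libraries. The part of T cells in the level of Bcl11b was not tested.

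Tfap2e and Meis2 mark the basal and the apical branch. Tfap2e (ENSMUSG00000042477) encodes AP-2ε, which keeps basal neurons in their identity, and lies on chromosome 4 from 126716006 to 126736240 on the minus strand of GRCm38. The 250 bases before its RefSeq start, which hold no annotated exon, are shown because they hold 3 E-boxes, the sites that basic helix-loop-helix factors such as Neurog1 and Neurod1 bind. Capitals mark CANNTG, which reads the same on both strands, and the window is chr4:126736270-126736519 (GRCm38.p6, minus strand, 5′ to 3′).
Tfap2e: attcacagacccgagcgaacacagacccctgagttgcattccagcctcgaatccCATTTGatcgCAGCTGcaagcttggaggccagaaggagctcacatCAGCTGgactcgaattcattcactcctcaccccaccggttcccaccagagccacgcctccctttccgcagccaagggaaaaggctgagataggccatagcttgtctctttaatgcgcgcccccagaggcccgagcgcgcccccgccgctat

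The E-boxes begin 196, 186 and 151 bases before the start, and the latter 2 read CAGCTG. This motif is common: 66.2% of 32851 RefSeq windows of the same length hold at least 1 and 12.2% at least 3. Each match is a description of letters and not evidence of binding. Among the other factors, the 250-base windows held 1 E-box for Neurod1, 1 for the second start of Ebf1 and 1 for the first start of Bcl6.

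Tfap2e was measured at 29.8, 21.9 and 10.5 CPM in control libraries and at 15.3, 17.7 and 14.7 CPM in pup libraries. The control libraries spanned the whole range of the pup libraries, and the spread was wider among controls (SD 9.71 CPM) than in pup libraries (SD 1.60 CPM). The log2 fold change was -0.39 (SE 0.44, edgeR adjusted p = 0.750) and was -0.028 without control exposure replicate 1.

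Meis2 (ENSMUSG00000027210; chromosome 2, 115863064 to 116065839), a homeodomain factor of the apical branch, was at 111, 130 and 145 CPM in control libraries and at 158, 157 and 111 CPM in pup libraries. Its highest library was only 1.42 times its lowest. For Meis2 the log2 fold change was 0.14 (SE 0.36, edgeR adjusted p = 0.896), and -0.025 under limma-voom weighted by sample quality. The log2 ratio of Tfap2e over Meis2 was -1.89, -2.57 and -3.78 in control libraries and -3.36, -3.14 and -2.91 in pup libraries, with every pup library inside the control range. The G proteins of both branches had overlapping groups. Gnai2 of the apical branch had a log2 fold change of 0.69 (SE 0.44, adjusted p = 0.566) and Gnao1 of the basal branch one of 0.58 (SE 0.40, adjusted p = 0.588), both in edgeR. Without pup exposure replicate 1 that of Gnai2 was 0.16, and without control exposure replicate 1 that of Gnao1 was 0.34.

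Bcl6 (ENSMUSG00000022508) encodes a zinc finger repressor with a BTB domain, known from germinal centre B cells and from neurogenesis in the cortex. On GRCm38 it lies on chromosome 16 from 23965052 to 23988852 on the minus strand. RefSeq gives it a pair of starts. The 250 bases before each are shown because Bcl6 was the factor that differed most and its transcription is known to respond to STAT factors, which bind TTCNNNGAA. Capitals mark that motif, which reads the same on both strands. The first window is chr16:23988853-23989102 and the second, inside the gene and outside its annotated exons, is chr16:23981284-23981533 (both GRCm38.p6, minus strand, 5′ to 3′).
Bcl6 first start: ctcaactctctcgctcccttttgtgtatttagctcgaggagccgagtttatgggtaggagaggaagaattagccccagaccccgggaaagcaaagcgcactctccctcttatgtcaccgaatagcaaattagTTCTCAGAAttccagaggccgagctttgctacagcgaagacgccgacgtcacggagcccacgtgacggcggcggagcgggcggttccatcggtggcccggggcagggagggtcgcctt
Bcl6 second start: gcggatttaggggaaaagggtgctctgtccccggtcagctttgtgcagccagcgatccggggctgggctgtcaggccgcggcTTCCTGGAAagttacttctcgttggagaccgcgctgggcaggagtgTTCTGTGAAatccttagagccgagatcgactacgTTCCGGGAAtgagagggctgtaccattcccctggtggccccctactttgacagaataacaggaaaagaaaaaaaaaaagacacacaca

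The first window holds 1 match, beginning 118 bases before the start, and the second holds 3, beginning 168, 122 and 88 bases before it. Among all 32851 windows, 7.02% hold at least 1 match and 0.027% (9 windows) at least 3. None of the 10 windows of the other 8 factors holds one. Beside this motif and the E-box, 2 others were searched, and both read the same on either strand. The Ebf family element, TCCC followed after any 2 bases by its reverse complement, occurs in no window of the 9 factors and in 0.779% of all windows. The homeodomain core TAATTA occurs in the window of Neurog1 alone among them and in 4.84% of all windows. These are matches of letters, and the files hold no measurement of binding.

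Counts of Bcl6 were 1959, 1386 and 616 in control libraries, although those libraries were shallower, and 69, 436 and 432 in pup libraries. As levels these were 154, 124 and 96.3 CPM against 3.70, 15.4 and 21.4 CPM. The lowest control library stood far above the highest pup library, a separation in this direction that 9.60% of all genes tested also showed. Means were 125 ± 28.7 and 13.5 ± 8.99 CPM (SD, n = 3 each), a ratio of 0.108. In edgeR its log2 fold change was -3.21 (SE 0.57), with an unadjusted p of 0.000123 and an adjusted p of 0.191. Bcl6 passed the threshold in DESeq2 (log2 fold change -3.25, adjusted p = 2.13e-06), which called 1.03% of genes with an adjusted p. It also passed in edgeR without a filter (-3.17, adjusted p = 2.97e-08, 0.502% of genes called) and with limma-voom weighted by sample quality (-2.96, adjusted p = 0.0247, 0.0774% called). In limma-voom without weights its adjusted p was 0.0628. With each library left out in turn, the log2 fold change ran from -3.70 to -2.76, the smallest without pup exposure replicate 1, and the edgeR adjusted p from 0.177 to 0.831. No 50-base word of its longest transcript occurs in a transcript of another gene.

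Summed markers of several cell types were lower in the pup libraries, as Bcl6 was, but did not follow it library by library. Among pup libraries Bcl6 was lowest in pup exposure replicate 1. There the B cell, supporting cell and red blood cell sums were highest and the immature neuron sum was lowest. The B cell list summed to 11.6 to 17.8 CPM in control libraries and 3.86 to 6.97 CPM in pup libraries, and nearly all of it was Ighm (log2 fold change -1.49, SE 0.46, edgeR adjusted p = 0.405), the only 1 of the 6 genes tested. Pax5 was at 0 in 5 libraries and Ms4a1 in 4, and Cd79a and Cd79b did not exceed 0.628 CPM. Without correction for gene length, Bcl6 was above the summed B cell list in every library but pup exposure replicate 1, where it was at 3.70 against 6.97 CPM. Supporting cell markers summed to 3887 to 4501 CPM and 1588 to 2340 CPM, with 5 of 7 negative, and red blood cell genes to 205 to 591 CPM and 52.6 to 168 CPM, with 4 of 4 negative. Most of the supporting cell sum was Cbr2, at 2839 to 3192 CPM and 906 to 1533 CPM. Immature neuron markers summed to 958 to 1306 CPM and 765 to 941 CPM, with 7 of 9 negative. For these 4 lists the groups did not overlap, while for the sums of all other marker lists they did. Of single genes tested, 19.8% had groups that did not overlap, and 9.60% were lower in every pup library. Among macrophage genes, 5 of 7 were negative, and their sums overlapped, at 125 to 532 CPM and 53.9 to 1125 CPM. Cd68 alone among them was lower in every pup library (log2 fold change -1.60, SE 0.38, edgeR adjusted p = 0.375). Csf1r and Lyz2 were positive, at 0.14 (SE 0.49) and 1.03 (SE 1.32). The part of any of these cells in the result for Bcl6 was not tested. Mature neuron markers overlapped, at 1417 to 1827 CPM and 1429 to 1691 CPM, and scaled to those genes the log2 fold change of Bcl6 was -3.13 (edgeR adjusted p = 0.192).

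**Figure D2:**
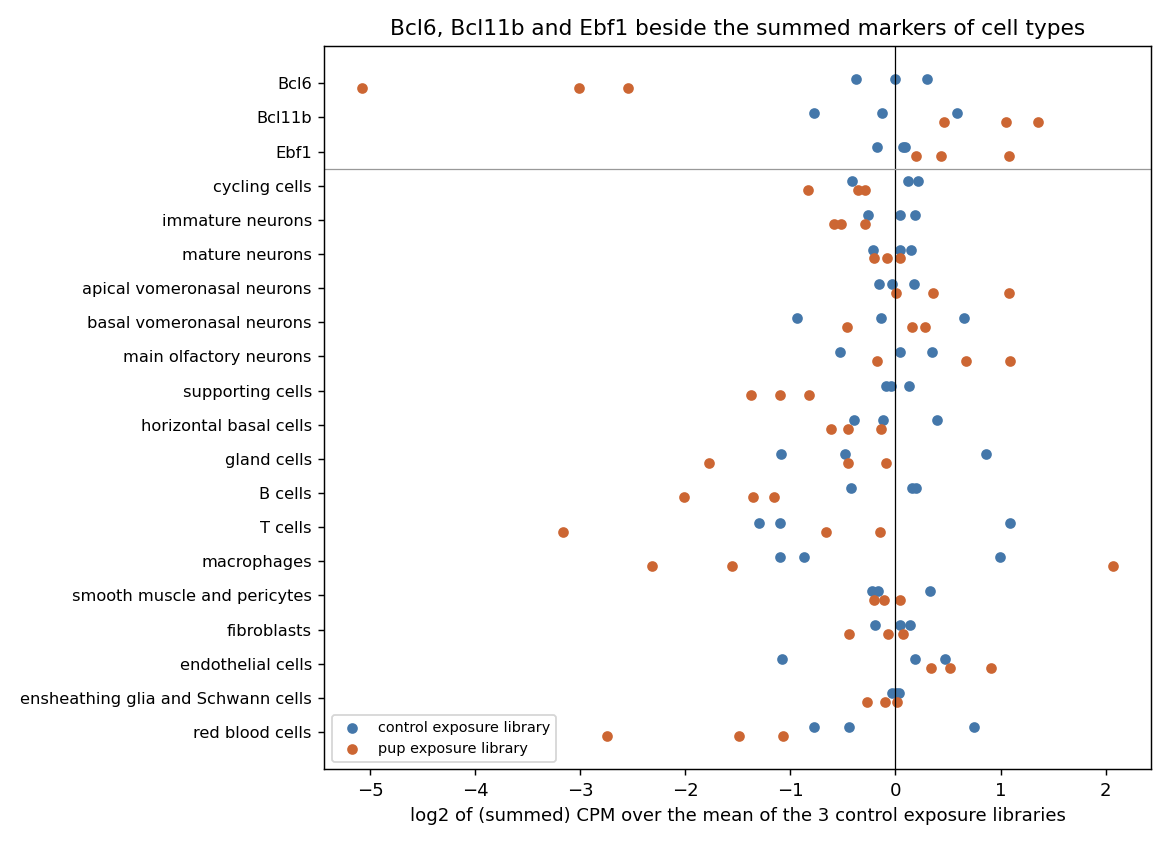
Levels of Bcl6, Bcl11b and Ebf1 (top) and summed marker levels of each cell type list (below), as the log2 of CPM over the mean of the 3 control exposure libraries (horizontal axis), for control exposure (blue) and pup exposure (orange) libraries. Bcl6 lies at -5.07 to -2.55 in pup libraries, and the supporting cell list at -1.38 to -0.82.

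The remaining factors are shared with the main olfactory lineage. Ebf1 (ENSMUSG00000057098; chromosome 11, 44617317 to 45008091), a founding member of the COE family of helix-loop-helix factors, was at 148, 178 and 175 CPM in control libraries and at 191, 352 and 225 CPM in pup libraries. Every pup library was above every control library, as in 10.1% of all genes tested, and pup exposure replicate 2 stood highest. The log2 fold change was 0.62 (SE 0.39, edgeR adjusted p = 0.554), and 0.33 without pup exposure replicate 2.

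The relatives Ebf2 and Ebf3, which bind the same DNA motif and are expressed in the same lineage, were also higher in every pup library. Ebf2 was at 48.1, 55.0 and 43.0 CPM in control libraries and 68.8, 167 and 75.8 CPM in pup libraries (log2 fold change 1.09, SE 0.42, unadjusted p = 0.0228, edgeR adjusted p = 0.424). Ebf3 was at 20.9, 23.1 and 24.1 CPM and at 56.6, 41.0 and 26.4 CPM (0.86, SE 0.38, unadjusted p = 0.0437, edgeR adjusted p = 0.447). Ebf1 and Ebf2 were highest in pup exposure replicate 2, Ebf3 in pup exposure replicate 1. Each of these 3 kept a positive log2 fold change in 4 of 4 other scalings and with each of the 6 libraries left out, and none passed the adjusted threshold. Without pup exposure replicate 2 the value for Ebf2 was 0.58, and without pup exposure replicate 1 those for Ebf2 and Ebf3 were 1.32 and 0.57. Ebf4 was not above 1.34 CPM in any library and was not tested.

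Ebf1 is also known from B cells, fibroblasts and pericytes. Fibroblast markers summed to 648 to 815 CPM in control libraries and 546 to 782 CPM in pup libraries, and smooth muscle and pericyte markers to 1059 to 1545 CPM and 1070 to 1271 CPM, so both sums overlapped. Acta2 and Myh11, contractile proteins of smooth muscle, made up most of the latter sum. Each of these lists of 6 genes had 3 positive and 3 negative log2 fold changes. Among the negative ones were Cnn1 of smooth muscle (-0.51, SE 0.42) and Dcn of fibroblasts (-0.48, SE 0.36), the latter lower in every pup library. The positive genes resembled Ebf1 across the libraries only in part. Rgs5, a pericyte marker, was at 47.4, 44.6 and 54.2 CPM in control libraries and 53.7, 137 and 118 CPM in pup libraries. Its groups overlapped, and it was highest like Ebf1 in pup exposure replicate 2 (log2 fold change 1.08, SE 0.41, unadjusted p = 0.0220, edgeR adjusted p = 0.424). Tagln, of smooth muscle, was higher in every pup library (0.97, SE 0.46, and 0.54 without pup exposure replicate 3). Unlike Ebf1, it was lowest among pup libraries in pup exposure replicate 2. Pdgfra of the fibroblast list was at 0.66 (SE 0.58), and at 0.20 without pup exposure replicate 2. Main olfactory neuron markers overlapped too, at 220 to 404 CPM and 280 to 675 CPM, with the 2 highest sums in pup exposure replicates 2 and 3, and 7 of 10 were positive. Ano2, a chloride channel of olfactory cilia, had a log2 fold change of 1.07 (SE 0.36, edgeR adjusted p = 0.421) and Cngb1, a subunit of the olfactory cyclic nucleotide channel, one of 0.90 (SE 0.40). Cnga2, the defining subunit of that channel, was at 0 in 2 control libraries and at most 7.05 CPM elsewhere. The negative genes of the list were Cnga2 (-0.84, SE 1.54), Cnga4 (-0.62, SE 0.62) and Stoml3 (-1.41, SE 1.07). Without control exposure replicate 1, Cnga2 and Stoml3 turned positive and Cnga4 was at -0.14. The part of these cells in the level of Ebf1 was not tested.

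Lhx2 (ENSMUSG00000000247; chromosome 2, 38339281 to 38369733), a LIM-homeodomain factor, was at 25.2, 45.5 and 34.7 CPM in control libraries and 47.7, 35.6 and 32.3 CPM in pup libraries. With overlapping groups, its log2 fold change was 0.13 (SE 0.37, edgeR adjusted p = 0.908). Ldb1, the adaptor through which LIM-homeodomain factors pair, had one of 0.40 (SE 0.46, edgeR adjusted p = 0.754), and of -0.093 without pup exposure replicate 1.

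Emx2 (ENSMUSG00000043969; chromosome 19, 59458372 to 59465357), a homeodomain factor known from olfactory and forebrain development, was the steadiest of the 9. It was at 86.5, 96.7 and 91.4 CPM in control libraries and 101, 77.4 and 81.5 CPM in pup libraries, and had a highest library 1.30 times the lowest. The log2 fold change was -0.082 (SE 0.34, edgeR adjusted p = 0.940). Of the 50-base words of its transcript, 7.50% also occur in Emx2os, an antisense RNA over the same locus. Counting by strand is not given in the sources used here, so reads there cannot be assigned to 1 of the pair. Emx2os had 84 to 949 counts per library, a log2 fold change of 0.36 (SE 0.40) and overlapping groups.

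**Figure D3:**
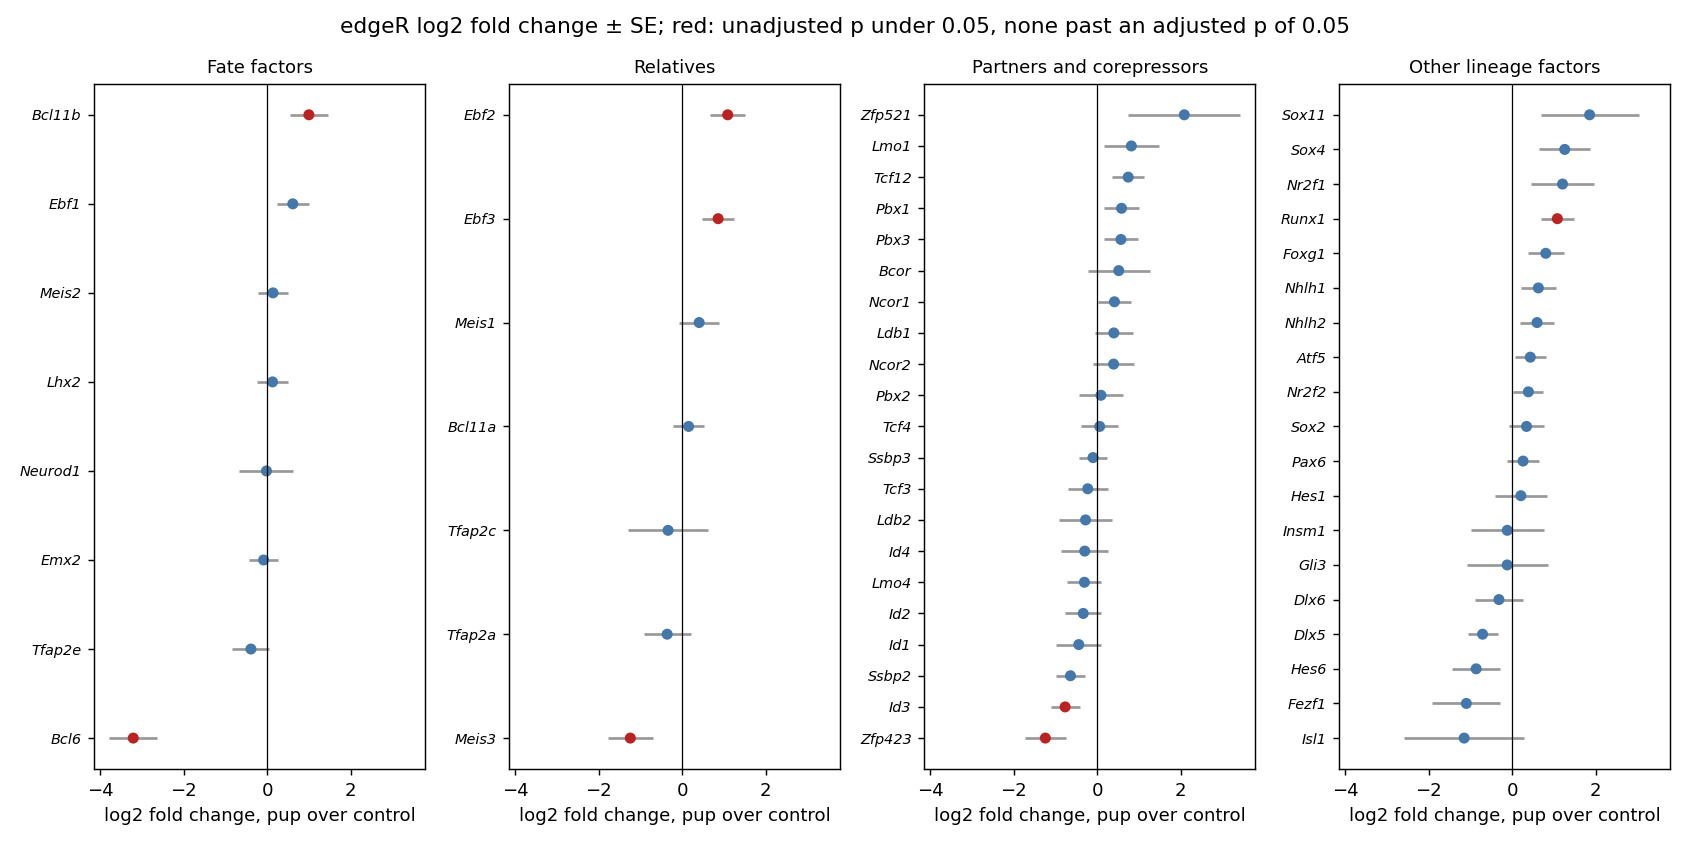
Log2 fold change of pup over control exposure (horizontal axis) with its standard error from edgeR, for tested genes of 4 lists, 1 of the other lineage factors left out: the fate factors, their relatives, their partners and corepressors, and other lineage factors. Red points have an unadjusted p under 0.05. Bcl6, at -3.21, lies lowest, and no gene shown passed an adjusted p of 0.05.

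The other genes around these factors were counted by list, in each of which 0 passed the adjusted threshold. Of 19 relatives, 7 were tested, with 4 positive and a median log2 fold change of 0.16. At an unadjusted p under 0.05 there were 3 of the 7, against 11% of all genes: Ebf2 and Ebf3, described above, and Meis3. Meis3, a homeodomain relative of Meis2, was at 13.2, 13.9 and 9.84 CPM in control libraries and 4.45, 2.44 and 8.80 CPM in pup libraries (log2 fold change -1.24, SE 0.53, edgeR adjusted p = 0.447). Meis1 and Bcl11a had overlapping groups, with log2 fold changes of 0.41 (SE 0.49) and 0.16 (SE 0.37). Leaving out 1 library turned both: Meis1 was at -0.15 without pup exposure replicate 2, and Bcl11a at -0.045 without control exposure replicate 3. Bcl11a was also at -0.039 once pup exposure replicate 1 was left out. Neurog2, Neurog3, Neurod2, Neurod4, Neurod6, Tfap2d and Lhx9 had no count in any library.

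Of 22 partners and corepressors, 21 were tested, with 11 positive and a median of 0.06. An unadjusted p under 0.05 was found for 2 of the 21, against 11% of all genes tested, so the count is near the background. Both were lower in every pup library. Zfp423, a zinc finger protein that binds Ebf factors and restrains them in olfactory precursors, was at 16.4, 28.1 and 14.2 CPM and at 4.29, 11.4 and 9.10 CPM (log2 fold change -1.24, SE 0.49, edgeR adjusted p = 0.425). Id3, an inhibitor that keeps basic helix-loop-helix proteins from binding DNA, was at 68.1, 76.9 and 87.2 CPM and at 43.1, 37.2 and 56.1 CPM (-0.77, SE 0.35, adjusted p = 0.453). Their log2 fold changes were negative in all 4 other scalings and with each library left out.

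Among 25 other lineage factors, 20 were tested, with 13 positive and a median of 0.30, and Runx1 alone had an unadjusted p under 0.05, 1 of 20 against 11% of all genes and so no more than the background. Runx1, which regulates the growth of olfactory progenitors, was at 19.9, 24.3 and 34.5 CPM in control libraries and 72.2, 58.1 and 35.9 CPM in pup libraries (log2 fold change 1.08, SE 0.40, edgeR adjusted p = 0.424). Cycling cell genes summed to 32.4 to 50.1 CPM and 24.2 to 35.3 CPM, with 6 of 8 negative and overlap between groups. Among immature neuron genes, 2 of 9 had an unadjusted p under 0.05, both lower, against 4.67% of all genes lower at that p. They were Gap43, a growth cone protein (log2 fold change -1.22, SE 0.44, edgeR adjusted p = 0.424), and Stmn1, a microtubule destabilizer (-1.11, SE 0.37, adjusted p = 0.418). These 2 and Stmn2, so 3 of 9, were lower in every pup library, against 9.60% of all genes. Dcx and Dpysl5 of the same list went the other way, at 0.43 (SE 0.57) and 0.53 (SE 0.48), with overlapping groups. Omp had a log2 fold change of -0.19 (SE 0.38, edgeR adjusted p = 0.868), and of 0.037 with library totals only.

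For each tested factor, the 2 listed genes with the most similar profile were found by the mean absolute difference in centred log2 CPM over the 6 libraries, among 154 genes. Meis2 and Neurod1 were among each other's nearest 2, at a distance of 0.17. Bcl11b was nearest to Gnao1 (0.27) and Runx1 (0.28), and Tfap2e to Dpysl3 (0.15) and Tcf3 (0.19). Ebf1 was nearest to Pdgfra (0.10) and Nr2f2 (0.13), Lhx2 to Emx2 (0.20) and Nhlh2 (0.22), and Emx2 to Omp (0.14) and Col1a1 (0.15). For Bcl6 the nearest were Cdk1 (0.76) and Alas2 (0.86), with a median distance of 1.79 from all listed genes. For the other 7 factors that median was 0.52 to 0.73. A distance of this kind grows with how far a gene varies between libraries, and Bcl6 varied most among the tested factors. Its larger distances therefore do not show an unusual profile. Depth went with the group and gland content was uneven between libraries, so these distances are descriptions of 6 points.

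**Figure D4:**
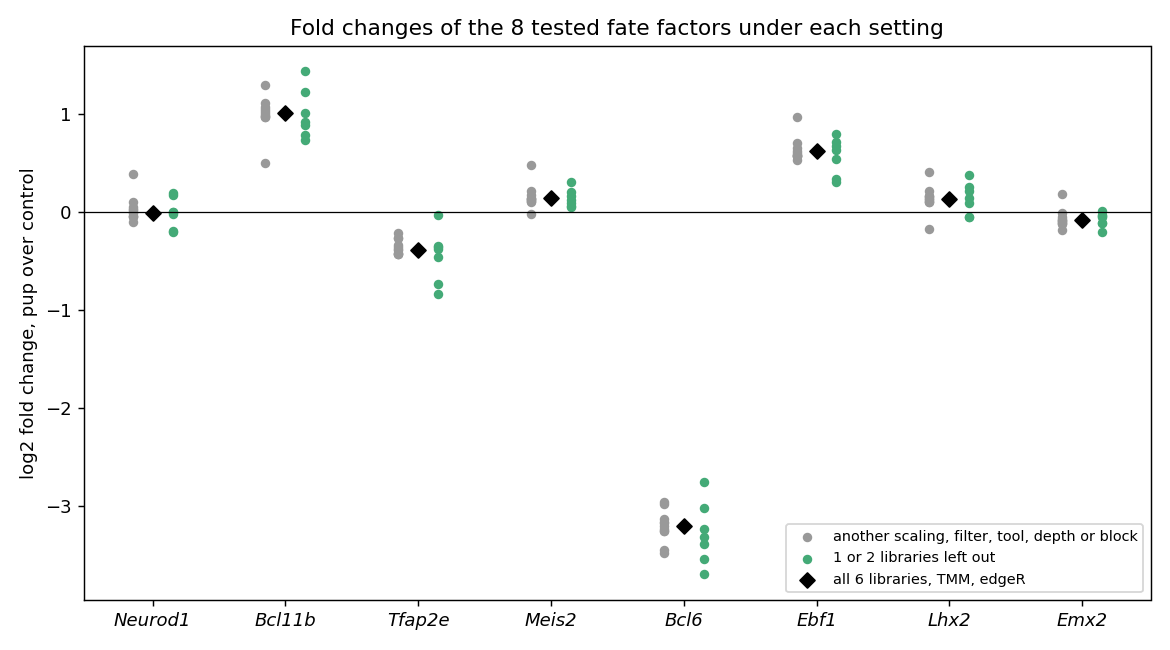
Log2 fold change of each of the 8 tested factors (vertical axis) with all libraries in edgeR (black diamond), under another scaling, filter, tool, thinned depth or the replicate block (grey), and with 1 or 2 libraries left out (green). Bcl6 stays between -3.70 and -2.76, while the points of Neurod1, Meis2, Lhx2 and Emx2 lie on both sides of 0.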

How the data were processed

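The authors deposited whole-number read counts per Ensembl gene for 6 libraries, not normalized. GRCm38 is the build named in the submitters' processing notes; how reads were aligned and counted, by strand or not, and on which annotation, is not given in the sources used here. Of 38561 IDs, 36639 matched GENCODE M21, all 186 listed genes among them. Members and lists were chosen with earlier results of these data known. Named genes are the 9 factors, Omp, Gnai2, Gnao1 and Gap43, and up to 4 genes per marker list. Listed transcription factors are named past the threshold, or up to 4 per list at an unadjusted p under 0.05. Ldb1, Meis1, Bcl11a, Ebf4, Cd4, Acta2, Myh11, Tagln, Pdgfra, Cnga4, Stoml3, Csf1r, Lyz2, Dcx, Dpysl5, Stmn2, genes at 0 and the defining markers were named after their values were seen.

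edgeR 4.0.16 (R 4.3.3) fitted an intercept and the group by quasi-likelihood over genes kept by filterByExpr (minimum count 10, minimum total 15), with TMM factors of 0.605 to 1.39. Standard errors come from the F statistic. Ratios are differences of log2 CPM with a prior count of 2 and have no test, since 3 against 3 libraries cannot give an exact p below 0.1. No pair of libraries in a group was a duplicate (chi-square over degrees of freedom, 86.2 to 300). Other settings used DESeq2 1.42.0 and limma 3.58.1; the fits were tested on simulated data. Promoter sequences are RefSeq's, on GRCm38.p6, and all 9 factors matched. Values of some listed genes are not reported here.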

Additional observations from a re-analysis of the deposited data

How the results depend on the processing

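Bcl6 (negative), Tfap2e (negative), Bcl11b and Ebf1 (positive) kept their direction in all 18 other settings. With 2 libraries left out together (control exposure replicate 3 and pup exposure replicate 2), a setting chosen after seeing the data, Bcl6 was at -3.54 (edgeR adjusted p = 0.730), Tfap2e at -0.84, Bcl11b at 0.89 and Ebf1 at 0.30. The count of factors called was 1, always Bcl6, in edgeR without a filter, DESeq2 and limma-voom with sample quality weights, where all genes called numbered 120, 127 and 12; limma-voom without weights called 8 genes and 0 factors. All other settings called 0 genes. The cause of these differences was not tested.

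Directions turned for 4 factors, all near 0. Neurod1 was at 0.39 with library totals only, 0.052 when scaled to mature neuron genes, 0.020 without a filter, 0.10 in limma-voom and 0.026 when thinned to 10590716 counts, and from -0.21 to 0.20 with single libraries left out. Meis2 was at -0.025 and Lhx2 at -0.18 in limma-voom with sample quality weights, and Lhx2 ran from -0.057 to 0.37 with single libraries left out. Emx2 was at 0.18 with library totals only and ran from -0.20 to 0.0096 with single libraries left out. Library totals only moved the median of all genes to 0.31, beside 0.39 for Neurod1 and 0.18 for Emx2 in that setting.

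The groups share replicate numbers, but the labels do not say that a number marks a shared day. Deviations of same-numbered libraries correlated at -0.035, 0.18 and 0.075 across genes, and not every library correlated best with its own number. With the replicate block 0 genes were called, and Bcl6 was at -3.45 (edgeR adjusted p = 0.507). Depth limits Neurog1, with at most 5 counts, and Neurod1, with 30 to 125.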
